A study of Mus musculus with 12 samples.

Results

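Cells treated with the degrader dTAG-13 for 3 h were compared with untreated cells in the absence of doxycycline, the drug that switches on the degrader's engineered target. The comparison took every library that the labels place in the dTAG-13 group (3) and in the control group (3), 6 of the 12 libraries of the series, and covered all genes. The cells were MC38-idAdpgkG, a stable derivative of MC38, a colon carcinoma line of C57BL/6 mice, carrying an inducible construct for mutated Adpgk fused to turboGFP and to a degradable tag. Mouse interferon-gamma at 20 ng/mL was present in both groups. It was the only addition in the control group, for 51 h. The dTAG-13 group had it for 48 h, after which 1 µM dTAG-13 was added for 3 h. The doxycycline and doxycycline plus dTAG-13 groups, also with interferon-gamma and with 1 µg/mL doxycycline, were used only to see the same degrader step in separate cultures.

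dTAG-13 is a bifunctional molecule. One end binds an engineered FKBP12 tag and the other binds cereblon (Crbn), the substrate receptor of a CUL4-DDB1 ubiquitin ligase, so that a tagged protein is ubiquitinated and destroyed by the proteasome. It acts on protein, and the comparison without doxycycline asks what differs in the RNA when that protein has not been induced.

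Each group is 1 culture, sequenced as 3 technical libraries. Errors and p-values therefore measure the spread between libraries, and the effect of dTAG-13 cannot be told apart from any other difference between the 2 cultures. The 6 libraries held 28200218 to 32809573 counts. The trimmed mean of M values (TMM) scaling factors were 0.9647 to 0.9716 in control and 1.03 to 1.0349 with dTAG-13, so they did not overlap. Markers of colon epithelium were all but absent: Epcam, Krt18, Krt20, Cdx2 and Muc2 had 0 reads in all 6 libraries and none of the 11 markers passed the filter on low counts. The mesenchymal genes Vim, Col3a1, Dcn and Pdgfra were abundant, while Ptprc and Cd3e, which mark leukocytes, had 0 reads. Levels are given as CPM, the read count normalised to the TMM-scaled library size, and a gene was called at an edgeR Benjamini-Hochberg adjusted p under 0.05.

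Genes of the degrader's own machinery differed by small amounts. Adpgk, which encodes the ADP-dependent glucokinase, was at 162, 158 and 162 CPM in the control libraries and at 177, 182 and 185 CPM with dTAG-13. The groups did not overlap, and the log2 fold change was 0.18 with SE 0.022 (edgeR adjusted p 4.48e-09). After correction for transcript length and GC content it was 0.34 (edgeR adjusted p 2.44e-16). For scale, Adpgk was at 1338 ± 20.1 CPM (SD, n = 3) in the doxycycline libraries, where transgene and endogenous reads are counted together. Crbn was at 22.1, 21.8 and 21.3 CPM in control and at 26.2, 26.5 and 26.1 CPM with dTAG-13. All 3 treated libraries were higher, with a log2 fold change of 0.27 with SE 0.0566 (edgeR adjusted p 5.84e-05). Corrected for transcript length and GC content, the Crbn difference was 0.09 at an adjusted p of 0.185. Fkbp1a, which encodes FKBP12 itself, fell by 0.10 on the log2 scale (edgeR adjusted p 8.28e-05), and with scaling by library size only its value was -0.01 at an adjusted p of 0.614. Of 13 genes of the ligase and its known neosubstrates, 5 rose and 5 fell, with a median log2 fold change of 0.007. Thus 76.9% were called, against 62.1% of all genes. After the correction 1 rose and 6 fell, with a median of -0.131, where 23.9% of all genes rose and 30.7% fell. Scaling by library size only gave 7 higher and 1 lower. Ddb1, the ligase's adaptor, fell by 0.29 on the log2 scale. Gspt1, a translation termination factor that some cereblon ligands degrade, fell by 0.13 in RNA.

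Differences were many and small. The test covered 12910 genes and called 8021 of them (62.1%), with 3877 higher (30.0%) and 4144 lower (32.1%) after dTAG-13. The median absolute log2 fold change of called genes was 0.309, and 85.8% of them differed by less than 1.5-fold. CPM values of the 2 groups did not overlap for 8453 genes (65.5%). Scaling by library size only moved the split to 5256 higher and 3115 lower. That scaling moved the median log2 fold change of all genes from 0.019 to 0.11.

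The 238 genes (1.84%) that were called and differed by at least 2-fold formed unlike sets in each direction. The 190 higher ones (1.47%) were mostly scarce, with a median of 0.482 CPM and 147 of them under 1 CPM. Their median transcript length was 2347 bases. The 48 lower ones (0.372%) had a median of 47.6 CPM and a median transcript length of 8342 bases, against 3400 bases for all genes tested. Where a gene had to reach 1 CPM in 3 libraries to be tested, 69 higher and 27 lower genes were past 2-fold. After the length and GC correction, 166 of the 190 higher genes were still called higher and 45 of the 48 lower genes still called lower. Only 115 of the 190 and 42 of the 48 had a known length, and the correction could not act on the rest.

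The largest increases in genes of at least 10 CPM included several non-coding RNAs. Snhg1 (chromosome 19, 8723487 to 8726326, GRCm38), a non-coding host of box C/D small nucleolar RNAs (snoRNAs), was at 120, 124 and 134 CPM in control and at 262, 254 and 259 CPM with dTAG-13. Its treated libraries were all well above its control libraries, a log2 fold change of 1.04 with SE 0.0302 (edgeR adjusted p 4.77e-27). Zfas1, another snoRNA host, was at 71.9, 73.2 and 64.7 CPM in control and at 147, 125 and 135 CPM with dTAG-13, a log2 fold change of 0.96. Malat1, a nuclear RNA of speckles, was at 61.1, 57.7 and 54.3 CPM in control and at 113, 106 and 115 CPM with dTAG-13, a log2 fold change of 0.95. Snhg16 rose by 1.01 and Snhg12 by 0.94 on the log2 scale. The coding genes among the 8 largest were Ankrd37, a hypoxia-responsive gene, Tcim, and Rapsn, which clusters acetylcholine receptors. Ankrd37 was at 12.6, 12.5 and 12.5 CPM in control and at 26.8, 26.8 and 27.6 CPM with dTAG-13, a log2 fold change of 1.11 with SE 0.0639 (edgeR adjusted p 1.22e-18).

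**Figure D1:**
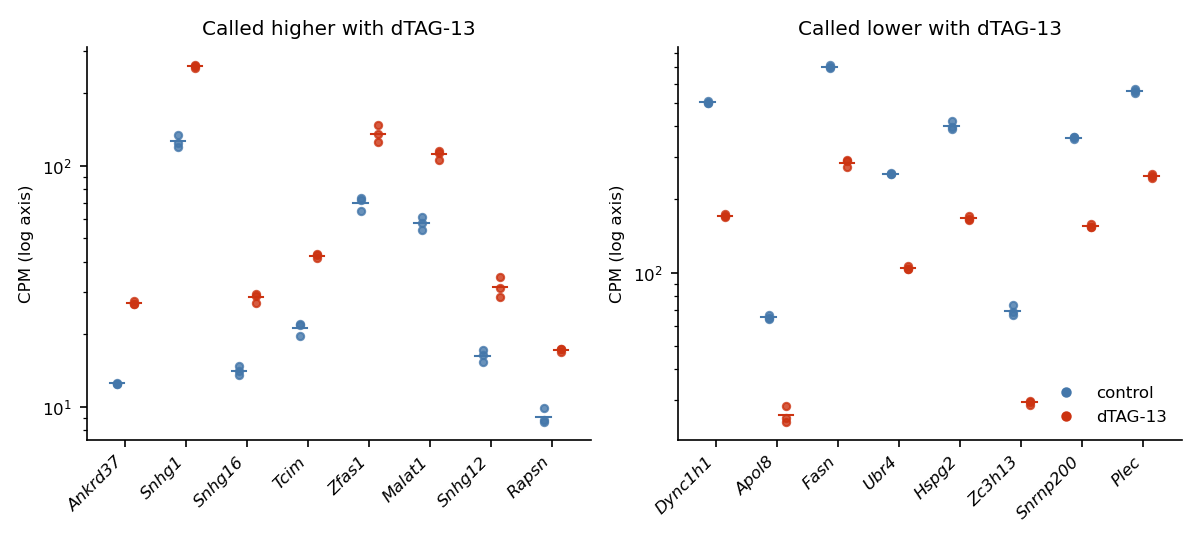
CPM (log axis) of the 8 genes with the largest increase (left) and the 8 with the largest decrease (right) among called genes of at least 10 CPM; each point is 1 library and each short line a group mean of 3. Only genes whose groups do not overlap were eligible, which holds for 65.5% of all genes tested. Dync1h1 is at 498 to 511 CPM in control and at 169 to 174 CPM with dTAG-13.

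The largest decreases were mostly in genes with very long messages. Dync1h1 (chromosome 12, 110601395 to 110666944, GRCm38), the heavy chain of cytoplasmic dynein with a transcript of 14342 bases, was at 499, 511 and 498 CPM in control and at 174, 170 and 169 CPM with dTAG-13. Its log2 fold change was -1.55 with SE 0.0268 (edgeR adjusted p 1.07e-34). Fasn, fatty acid synthase, was at 693, 702 and 717 CPM in control and at 273, 288 and 290 CPM with dTAG-13, a log2 fold change of -1.31. Ubr4, a ubiquitin ligase of the N-degron pathway, fell by 1.29. Hspg2, the basement membrane proteoglycan perlecan, fell by 1.27. Plec, the cytolinker plectin, fell by 1.16. Snrnp200, the helicase of the spliceosome, went from 360, 361 and 355 CPM to 159, 154 and 154 CPM, and Zc3h13, part of the RNA m6A methylation complex, fell by 1.26. Apol8, of the apolipoprotein L family, was the exception in length, with a transcript of 2801 bases. It was at 64.9, 67.1 and 64.7 CPM in control and at 28.3, 25.1 and 24.3 CPM with dTAG-13, a log2 fold change of -1.34. After the correction Apol8 was at -1.35, Dync1h1 at -1.06, Zc3h13 at -1.01, Fasn at -0.80 and Plec at -0.55.

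The changes were related to transcript length, taken as the longest annotated transcript of each gene. Across the 11745 tested genes with a known length, the Spearman correlation of the log2 fold change with that length was -0.415, which is descriptive since genes are not independent. It was -0.1924 with the median annotated transcript and 0.0154 with the shortest. In the shortest of 8 equal bins of transcript length (71 to 1578 bases) 760 genes rose and 92 fell, and in the longest (from 6353 bases) 150 rose and 955 fell. The medians of those bins were 0.212 and -0.285 on the log2 scale. In each library, the slope of log2 CPM (as deviation from the mean of all 12 libraries) on log2 transcript length was positive in control, at 0.0733, 0.0841 and 0.0923 per doubling. With dTAG-13 it was negative, at -0.0893, -0.0628 and -0.0749. The group means were 0.0832 ± 0.0095 and -0.0757 ± 0.0132 (SD, n = 3), and the exact two-sided permutation p was 0.1, the smallest that 3 against 3 can give.

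The relation was steeper with coding length than with the rest of the transcript. The correlation was -0.452 with coding length and -0.202 with the noncoding part of the same transcript. With both in the slope, the dTAG-13 minus control difference was -0.1429 per doubling of coding length and -0.0253 per doubling of noncoding length (exact permutation p 0.1 for each, n = 3). In the shortest of 4 equal bins of coding length 1449 genes rose and 361 fell, and in the longest 299 rose and 1806 fell. In that longest bin the median log2 fold change was between -0.238 and -0.271 across the 4 bins of noncoding length. Long non-coding RNAs of great length went the other way. Of 10 past 4000 bases, 7 rose and 0 fell, with a median log2 fold change of 0.575, while of 4501 protein-coding genes past 4000 bases, 778 rose and 2353 fell. Neat1, the scaffold of paraspeckles with a transcript of 20771 bases, was at 12.6, 12.8 and 11.6 CPM in control and at 23.1, 20.6 and 19.2 CPM with dTAG-13, a log2 fold change of 0.77.

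**Figure D2:**
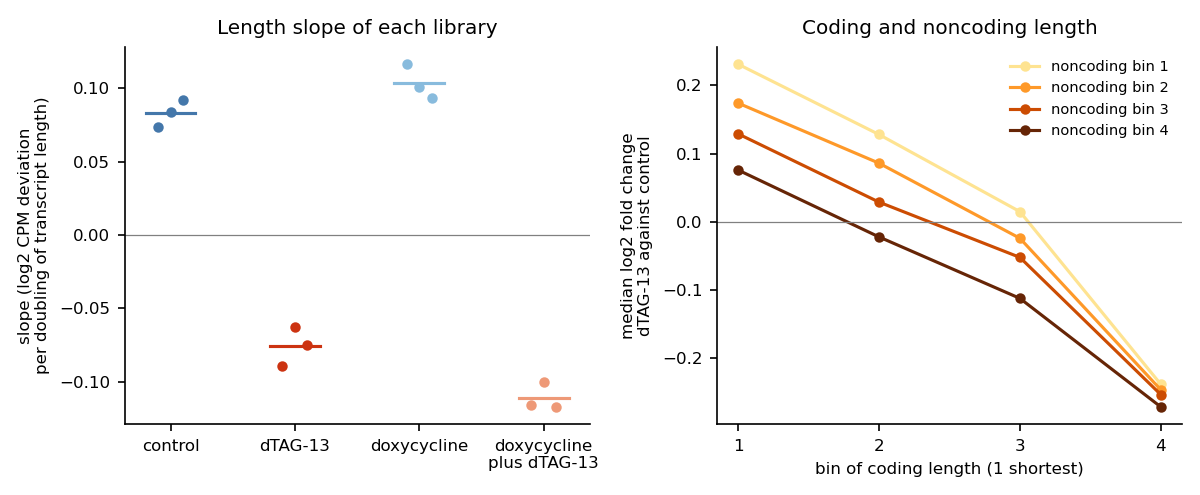
Left, the slope of log2 CPM deviation on log2 transcript length in each library (points) with group means (lines); right, the median log2 fold change of dTAG-13 against control in 4 bins of coding length, 1 line per bin of noncoding length. Control slopes are 0.0733 to 0.0923 and dTAG-13 slopes -0.0893 to -0.0628, and all 4 lines fall to between -0.238 and -0.271 in the longest coding bin.

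With fold changes corrected for length and GC, 7046 genes (54.6%) passed the test, 3085 higher (23.9%) and 3961 lower (30.7%). Of the 8021 genes called without it, 5608 kept their call and sign, 2125 lost the call and 288 were called with the opposite sign. Among genes of at least 10 CPM with a known length, which alone could be corrected, the largest increases after correction were in Neat1 (1.19), Malat1 (1.05), Slc9a5, a sodium/proton exchanger (1.04), and Amn1 (1.01), all as log2 fold changes. The largest decreases were in Apol8 (-1.35), mt-Nd4l, a complex I subunit gene of the mitochondrial genome (-1.102), Dync1h1 (-1.06), Hmgn5, a nucleosome-binding protein (-1.01), Zc3h13 (-1.01) and Sltm, a nuclear RNA-binding protein (-0.93). The correction left a Spearman correlation of -0.15 with coding length, so it did not remove all of the relation. Length was not the only related feature. With mean CPM the correlation was -0.319 without the correction and -0.338 with it. With exon number, gene span and GC it was -0.333, -0.28 and -0.238 without it, and -0.118, -0.104 and -0.031 with it.

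The snoRNA host genes rose together. These genes carry snoRNAs in their introns, and the exons of most of them hold no long reading frame. Of 15 tested, 14 rose (93.3%) and 0 fell, where 30.0% of all genes rose and 32.1% fell. The median log2 fold change was 0.604 against 0.019 for all genes. Gas5 was at 227, 218 and 219 CPM in control and at 339, 317 and 318 CPM with dTAG-13, a log2 fold change of 0.56 with SE 0.027 (edgeR adjusted p 1.12e-20). Snhg5 was at 47.2, 47.0 and 42.9 CPM in control and at 86.3, 84.9 and 80.0 CPM with dTAG-13, a log2 fold change of 0.87. The control libraries were the lower ones for both. Snhg3, at under 1 CPM, was not called (log2 fold change 0.68, edgeR adjusted p 0.0765). Only 6 of the 15 had a known length, so the correction could act on those alone. Snhg8 was at 0.37 without it and at -0.02 with it, while 13 of the 15 were still called higher.

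**Figure D3:**
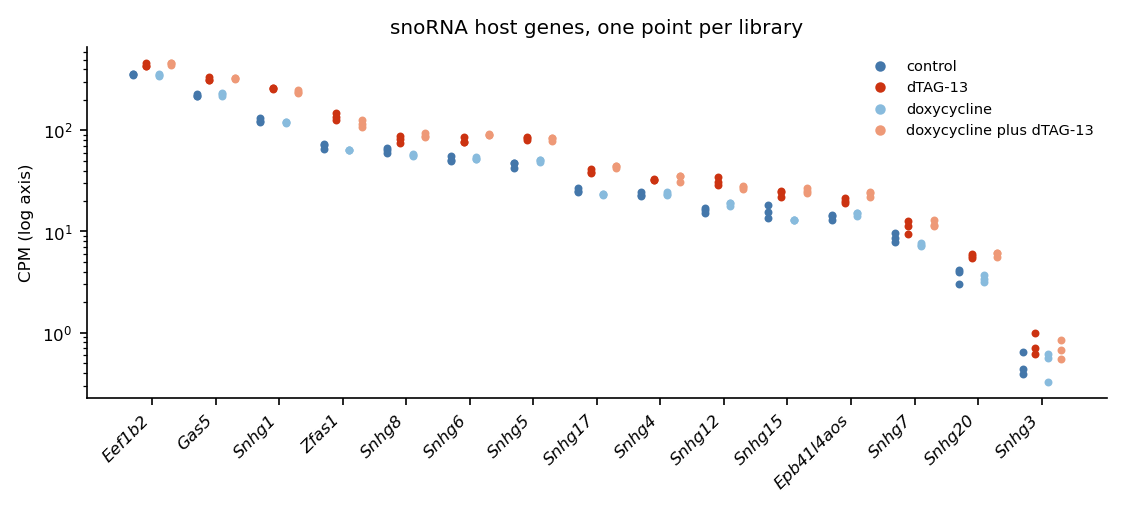
CPM (log axis) of the 15 tested snoRNA host genes in all 12 libraries, 1 point per library, ordered by their control mean. Both groups with dTAG-13 sit above their partners without it for most genes, as for Gas5 with 218 to 227 CPM in control and 317 to 339 CPM with dTAG-13.

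The snoRNAs themselves, which carry no poly(A) tail when mature, had few reads. Of 52 small nucleolar and Cajal body RNAs tested, 28 rose (53.8%) and 0 fell, with a median log2 fold change of 0.839. Among all genes 30.0% rose and 32.1% fell. Of the 27 that rose inside a tested host gene, 18 had a host that also rose, 8 a host that was not called and 1 a host that fell. Of all 44 distinct hosts of the tested RNAs, 26 rose and 6 fell. The counts do not tell a mature snoRNA from intron RNA of its host. Of the box C/D snoRNAs with the most reads among those that rose inside a host, 4 are printed here as examples of the RNAs on which these reads fell. The sequences are from GENCODE M21 (GRCm38), matched by symbol and written 5′ to 3′ on the strand of the RNA, with T for U. Capitals mark the first TGATGA, the core of box C, where it lies in the first part of the RNA before its midpoint, and the last CTGA, box D, where it lies past the midpoint. Both strings were looked for on the RNA strand only and at different places, so they do not overlap. Of 98 Snord transcripts in that annotation, 72 (73.5%) hold both in these positions, and of 42 Snora transcripts 0 do.
Snord96a: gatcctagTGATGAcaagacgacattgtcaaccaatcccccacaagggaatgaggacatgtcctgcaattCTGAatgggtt
Snord22: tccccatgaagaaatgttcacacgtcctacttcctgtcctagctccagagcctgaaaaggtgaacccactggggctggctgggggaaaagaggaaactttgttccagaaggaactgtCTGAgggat
Snord72: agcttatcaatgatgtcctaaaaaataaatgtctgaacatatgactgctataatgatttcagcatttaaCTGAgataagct
Snord12: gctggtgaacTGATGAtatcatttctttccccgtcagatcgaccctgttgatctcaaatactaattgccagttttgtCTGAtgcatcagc

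Snord96a (chr11:48802032-48802112, plus strand), inside Rack1, which encodes a scaffold protein of the ribosome, had 68, 68 and 51 reads in control and 138, 136 and 128 with dTAG-13. Its log2 fold change was 1.102 with SE 0.149 (edgeR adjusted p 2.56e-08) while that of Rack1 was 0.33. Snord22 (chr19:8725866-8725991, plus strand), in Snhg1, had 40, 55 and 33 reads in control and 117, 106 and 122 with dTAG-13, a log2 fold change of 1.43. Snord72 (chr15:5118404-5118484, plus strand), in Rpl37, had 24, 25 and 23 reads in control and 91, 59 and 64 with dTAG-13. Its log2 fold change was 1.56, and Rpl37 at 0.21 was not called (edgeR adjusted p 0.191). Snord12 (chr2:167065276-167065365, plus strand), in Zfas1, had 18, 18 and 5 reads in control and 55, 47 and 49 with dTAG-13, a log2 fold change of 1.87 against 0.96 for its host. All 4 were taken from snoRNAs called higher, so their higher treated libraries follow from that choice. Their reads did not overlap between the groups, and CPM did not overlap for 65.5% of all genes.

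The genes with giant transcripts fell together, a list chosen for its length. Of 32, 0 rose and 30 fell (93.8%), with a median log2 fold change of -0.782, where 32.1% of all genes fell. After the correction 28 fell and 2 rose, with a median of -0.277, where 30.7% of all genes fell and 23.9% rose. Myh9, non-muscle myosin heavy chain, was at 1232, 1226 and 1210 CPM in control and at 602, 580 and 600 CPM with dTAG-13, a log2 fold change of -1.04. Cad, which starts pyrimidine synthesis, fell by 1.05 and Fat1, a giant cadherin, by 1.16. Prkdc, the DNA-dependent protein kinase, was at 0.05 (adjusted p 0.598) and Dync2h1, the ciliary dynein heavy chain, at 0.08 (adjusted p 0.506), and these were the 2 that rose after the correction.

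Mitotic genes were lower, and the correction did not change that. Of 22 genes of the G2/M phase, 17 fell (77.3%) and 2 rose (9.09%), with a median log2 fold change of -0.291. After correction 19 fell and 1 rose, with a median of -0.331. Among all genes 32.1% fell and 30.0% rose, and after correction 30.7% fell and 23.9% rose. Mki67, which coats mitotic chromosomes, was at 243, 244 and 264 CPM in control and at 117, 114 and 120 CPM with dTAG-13, a log2 fold change of -1.095 with SE 0.0291 (edgeR adjusted p 1.24e-29). Plk1, the polo-like kinase of mitotic entry, was at 112, 114 and 118 CPM in control and at 64.7, 66.9 and 62.9 CPM with dTAG-13. Its log2 fold change was -0.82 both without and with the correction. The kinetochore motor gene Cenpe fell by 0.94, and Top2a, the topoisomerase that untangles sister chromatids, by 0.34. Cdk1, the kinase that drives mitosis, rose by 0.09, and Bub1, of the spindle checkpoint, rose by 0.19 but was at -0.01 after correction.

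Of 24 genes of G1/S and DNA replication, 15 fell (62.5%) and 6 rose (25.0%), with a median of -0.229. Among all genes 32.1% fell and 30.0% rose. After correction 15 fell and 4 rose, where 30.7% of all genes fell and 23.9% rose. Pole, the leading-strand polymerase, was at 98.5, 100 and 105 CPM in control and at 64.4, 67.1 and 65.4 CPM with dTAG-13, a log2 fold change of -0.63. Of the replicative helicase genes, Mcm4 fell by 0.38 and Mcm3 by 0.38. Ccne2, a cyclin of S-phase entry, went the other way, from 30.6, 30.6 and 31.1 CPM to 46.1, 48.1 and 43.8 CPM, a log2 fold change of 0.58.

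Targets of YAP and TEAD, the transcription factors at the end of the Hippo pathway, were lower. Of 14 tested, 12 fell (85.7%) and 1 rose (7.14%), with a median log2 fold change of -0.443. Among all genes 32.1% fell and 30.0% rose. After correction 11 fell and 0 rose, with a median of -0.267, where 30.7% of all genes fell and 23.9% rose. Tead1 was at 219, 225 and 224 CPM in control and at 113, 121 and 116 CPM with dTAG-13, a log2 fold change of -0.93. Amotl2, an inhibitor in the same pathway, was at 107, 102 and 102 CPM in control and at 61.7, 60.8 and 62.8 CPM with dTAG-13, a log2 fold change of -0.75. F3, the coagulation factor receptor, rose by 0.28, and after correction it was at 0.08 with an adjusted p of 0.181.

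Immediate early genes, which cells switch on within minutes of a stimulus, were not raised as a group. Of 22 tested, 9 fell and 2 rose, with a median of -0.151, and with scaling by library size only 7 fell and 4 rose. Egr1 was at 277, 270 and 291 CPM in control and at 189, 189 and 187 CPM with dTAG-13, a log2 fold change of -0.57. Myc fell by 0.42. Atf3, a stress-induced member, was at 4.11, 4.61 and 3.58 CPM in control and at 6.33, 5.41 and 5.92 CPM with dTAG-13, a log2 fold change of 0.52.

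Heat-shock chaperones did not rise together. Of 13, 7 fell (53.8%) and 3 rose (23.1%), with 6 lower and 2 higher after correction. Among all genes 32.1% fell and 30.0% rose, and after correction 30.7% fell and 23.9% rose. Hsp90ab1, the constitutive HSP90, fell by 0.36 and the mitochondrial chaperonin Hspd1 by 0.45. Bag3, the co-chaperone that heat-shock factor induces, was at 68.0, 69.0 and 71.8 CPM in control and at 41.9, 44.3 and 43.0 CPM with dTAG-13, a log2 fold change of -0.69. Hspe1 rose by 0.34 but was at -0.02 after correction. Of 16 chaperones of the endoplasmic reticulum, 6 rose (37.5%) and 2 fell (12.5%), and after correction 5 rose and 7 fell.

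Stress and damage lists were mixed, beside 30.0% higher and 32.1% lower over all genes. Of 19 genes of the integrated stress response, 7 rose (36.8%) and 10 fell (52.6%), against 8 and 7 with scaling by library size only. Slc7a5, the large amino acid transporter, was at 846, 841 and 838 CPM in control and at 490, 506 and 494 CPM with dTAG-13, a log2 fold change of -0.76. Ddit4, an mTORC1 inhibitor that stress induces, rose from 154, 148 and 131 CPM to 242, 224 and 238 CPM, a log2 fold change of 0.70. Atf4, a transcription factor of the integrated stress response, was at -0.01 (edgeR adjusted p 0.636). Of 15 p53 targets, 6 rose (40.0%) and 2 fell (13.3%), with a median of 0.083, against 9 and 2 with that scaling. Called genes were 53.3% of that list, against 62.1% of all genes. Mdm2, which degrades p53, rose by 0.32. Of 16 NRF2 targets, 5 rose (31.2%) and 7 fell (43.8%), against 8 and 6 with that scaling. Nqo1, the quinone reductase, rose by 0.75 from about 4 CPM. Of 22 genes of glycolysis and hypoxia, 10 rose (45.5%) and 8 fell (36.4%), against 13 and 3 with that scaling. Bnip3, a mitophagy receptor that hypoxia induces, was at 150, 152 and 152 CPM in control and at 261, 255 and 258 CPM with dTAG-13, a log2 fold change of 0.77. Hk2, the hypoxia-responsive hexokinase, was at 170, 173 and 166 CPM in control and at 105, 103 and 108 CPM with dTAG-13, a log2 fold change of -0.69.

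Interferon-gamma was present in both groups, and of 19 of its target genes tested, 5 rose (26.3%) and 4 fell (21.1%), with a median log2 fold change of 0.022. Over all genes 30.0% rose and 32.1% fell, so the list does not stand out. After correction 5 rose and 8 fell. Scaling by library size only gave 11 higher and 2 lower. Irgm1, an immunity-related GTPase, fell by 0.33, while Cd274, which encodes the checkpoint ligand PD-L1, rose by 0.20. Of 14 genes of MHC class I antigen presentation, 6 rose (42.9%) and 5 fell (35.7%), with a median of 0.003. Thus 78.6% were called, against 62.1% of all genes. H2-K1, a class I heavy chain, was at 1504, 1484 and 1352 CPM in control and at 1410, 1402 and 1392 CPM with dTAG-13, with overlap and no call (edgeR adjusted p 0.314). Psmb9, an immunoproteasome subunit, was at 107, 107 and 102 CPM in control and at 147, 137 and 137 CPM with dTAG-13, a log2 fold change of 0.42, and 0.45 after correction.

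Several large housekeeping lists of short messages rose before the correction and not after it. Among all genes 30.0% rose and 32.1% fell, and after correction 23.9% rose and 30.7% fell. Of 74 nuclear genes of the respiratory chain, 54 rose (73.0%) and 5 fell (6.76%), with a median of 0.21. After correction 14 of them rose and 22 fell. Of 82 cytosolic ribosomal protein genes, 43 rose and 1 fell, and after correction 19 rose and 14 fell, with a median of 0.006. Of 77 mitochondrial ribosomal protein genes, 49 rose and 4 fell, and 26 rose and 22 fell after it. Of 33 proteasome subunit genes, 19 rose and 4 fell, and after correction 3 rose and 16 fell. Rpl12 had the largest increase of the cytosolic family. It was at 42.3, 41.7 and 38.5 CPM in control and at 71.2, 72.6 and 69.0 CPM with dTAG-13, a log2 fold change of 0.80, and 0.78 after correction. Of the 13 protein genes of the mitochondrial genome, all short, 7 fell and 1 rose without the correction, and 13 fell with it.

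**Figure D4:**
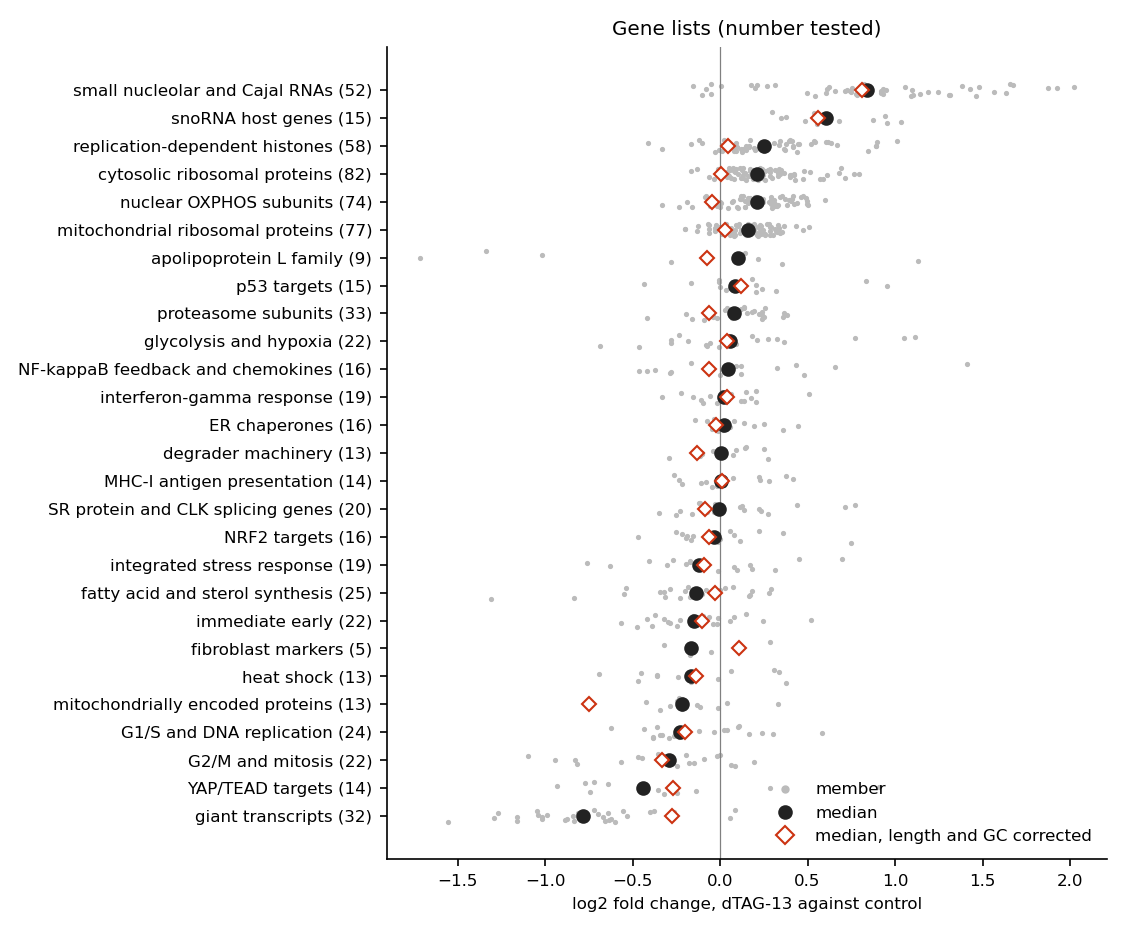
Log2 fold change of dTAG-13 against control for gene lists with at least 5 tested members, with each member as a grey point, the median as a black circle and the median after the length and GC correction as an open diamond. The median of the snoRNA hosts is 0.559 after correction, but only 6 of the 15 had a known length and could be corrected. Cytosolic ribosomal protein and nuclear respiratory chain genes, with a length for 81 of 82 and 74 of 74, move to 0.006 and -0.044.

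The same degrader step was measured in other cultures, where doxycycline had been present. Doxycycline plus dTAG-13 against doxycycline shares no library with the comparison above, and 8273 genes (64.1%) were called in it. The difference between the 2 steps (the interaction) was called for 2950 genes (22.9%), positive for 1705 (13.2%) and negative for 1245 (9.64%). With the correction it was called for 2928 (22.7%), positive for 2031 (15.7%) and negative for 897 (6.95%). Of the snoRNA hosts, 14 rose there too, with a median of 0.687, and of the giant transcripts 31 fell, with a median of -0.675. The size of the change differed, as the interaction was called for 6 of the 15 hosts (4 positive, 2 negative) and was positive for 17 and negative for 4 of the 32 giant transcripts. The mean length slope was 0.1035 in the doxycycline libraries and -0.111 in those with both. Of the 190 genes at least 2-fold higher with dTAG-13 alone, 83 were called higher there and 1 lower, and of the 48 lower, 35 were called lower and 2 higher. After correction, 6894 genes (53.4%) were called in the step with doxycycline, 3330 higher (25.8%) and 3564 lower (27.6%). Of these, 4990 genes were called in both steps and 94.8% of them had the same sign.

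The immediate early and hypoxia lists differed between the steps. With doxycycline 15 of the 22 immediate early genes rose and 3 fell, and the interaction was called positive for 16. Egr1, lower with dTAG-13 alone, rose by 1.12 with doxycycline present, and the interaction was 1.69 (edgeR adjusted p 6.51e-31). Mean Egr1 was 279 CPM in control, 188 with dTAG-13, 109 with doxycycline and 238 with both. The rise thus started from a doxycycline level below control and ended below control. Ccn1, a secreted matrix protein, was at -0.32 without doxycycline and at 1.64 with it. Mean Ccn1 was 288 CPM in control, 230 with dTAG-13, 106 with doxycycline and 329 with both. Of the 22 glycolysis and hypoxia genes, 4 rose and 15 fell with doxycycline, and the interaction was negative for 15 and positive for 0. Ankrd37 was at 1.11 without doxycycline and at 0.07 with it, an interaction of -1.04 (edgeR adjusted p 2.3e-11). Bnip3 was at 0.77 without and at 0.17 with it. Apol8 was at -1.34 without and at -0.18 with it. Protein genes of the mitochondrial genome had 7 lower and 1 higher without doxycycline and 12 higher and 0 lower with it, and mt-Nd1, a complex I subunit, was at -0.34 and 0.53. After the length and GC correction these opposite directions did not hold: 13 were lower without doxycycline, and 5 lower and 1 higher with it.

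**Figure D5:**
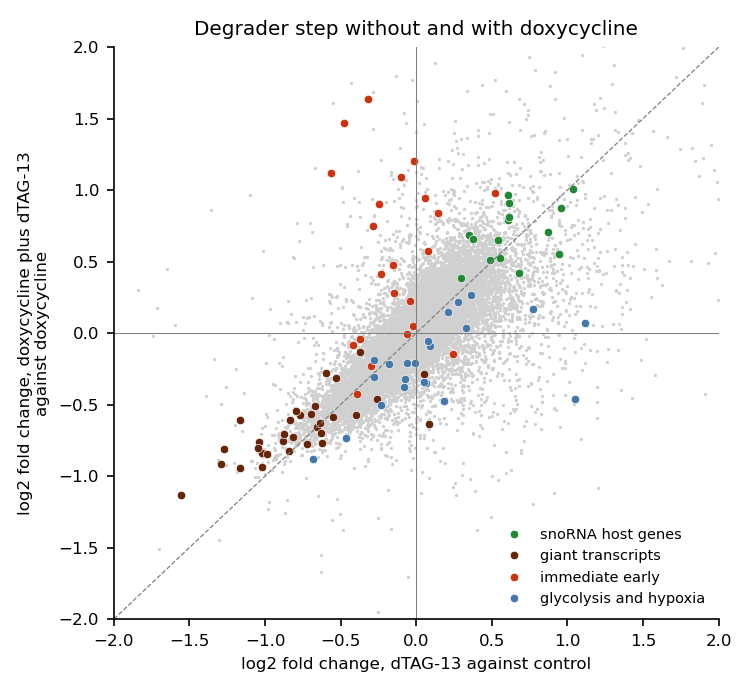
Log2 fold change of dTAG-13 against control (x axis) and of doxycycline plus dTAG-13 against doxycycline (y axis) for each gene (grey) and 4 lists (colours), with the line of equality dashed; 27 genes lie outside the plotted range. snoRNA hosts are higher and most giant transcripts lower on both axes, with Dync1h1 at -1.55 and -1.13, while most immediate early genes lie above the line, such as Egr1 at -0.57 and 1.12, and most hypoxia genes below it.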

How the data were processed

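The deposited table gives unnormalized read counts for 27179 Entrez gene IDs in 12 poly(A) RNA libraries. Subread was the aligner, per the file headers, and the submitters' processing notes name featureCounts, bcl2fastq 2.17 and mm10. No source used here gives the strand setting, annotation or treatment of multimapping reads, so overlapping genes are uncertain. Symbols came from RefSeq GRCm38.p6, and transcript and coding lengths from GENCODE M21 for 11745 of the 12910 tested genes (longest transcript).

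Genes passing filterByExpr were fitted in edgeR 4.0.16 (R 4.3.3) with 1 mean per group over all 12 libraries, TMM scaling and a robust quasi-likelihood F test, two-sided. P-values were adjusted by Benjamini-Hochberg over all tested genes, and SE was derived from the F statistic. Fold changes are log2. The correction fitted each library's deviation of log2 CPM on splines (5 degrees of freedom) of length and GC content and entered it as an offset. Genes without a length were not corrected. The alternatives were DESeq2 1.42.0, other scalings, filters and lengths, the replicate block and leaving out each library. The code was tested on simulated data.

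The comparison and gene lists were chosen with earlier results of these data known. The rule for naming genes took Adpgk, Crbn and Fkbp1a, the 8 largest increases and decreases (6 after correction) among called genes of at least 10 CPM without overlap, the top called member of each list in each direction, and the 4 largest interactions in each direction. The written rule did not ask for a known length, but after correction only genes with one were taken, a limit added later. Without it Snhg1 (1.04) would have ranked among the largest corrected increases. Other named list members and the 4 snoRNAs shown were picked after their values were seen; 1 further snoRNA of that rank is not reported here. Intervals cover the spread between technical libraries of 1 culture only. Replicate numbers were checked for pairing. Same-numbered control and dTAG-13 libraries deviated together at r = 0.025 to 0.08, so they were not treated as pairs.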

Additional observations from a re-analysis of the deposited data

Results flagged for a closer look

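These genes were picked out because their dTAG-13 effect differed between the step without doxycycline and the step with it, by an edgeR interaction test at an adjusted p under 0.05. Values in parentheses are interaction log2 fold changes, the effect with doxycycline minus the effect without it. The interaction was called for 22.9% of all tested genes, and the cause was not tested. The most positive values were in Ccn1 (1.96), Apol7b (1.89), Egr1 (1.69), Klf6 (1.19), mt-Rnr2 (1.19), Apol8 (1.16) and mt-Nd4l (0.89). Smaller positive values were in Rbm3 (0.69), Plec (0.55), Hspg2 (0.46), Fasn (0.42), Dync1h1 (0.42), Ubr4 (0.38) and Zc3h13 (0.34). Further positive values were in Slc7a5 (0.32), Hspe1 (0.31), Snrnp200 (0.29), Irgm1 (0.24), Mrpl33 (0.22), Mki67 (0.20), Fkbp1a (0.12) and Tead1 (0.11). The most negative values were in Nos2 (-1.21), Trp53inp1 (-1.13), Ankrd37 (-1.04), Apln (-0.95), Gstm1 (-0.93), Rapsn (-0.70) and Apol7a (-0.67). Smaller negative values were in Ddit4 (-0.67), Tcim (-0.67), Mapk8ip3 (-0.52), Neat1 (-0.50), Nqo1 (-0.42), Snhg12 (-0.39) and Slc9a5 (-0.36). Further negative values were in F3 (-0.33), Amn1 (-0.32), Dcn (-0.21), Hk2 (-0.19), Adpgk (-0.14) and Bub1 (-0.14). Ccn1 and Egr1 are immediate early genes, mt-Rnr2 and mt-Nd4l are mitochondrial RNAs, and Ankrd37, Apln and Ddit4 are known hypoxia-responsive genes.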

How the results depend on the processing

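Of 76 named genes, 61 kept their direction and their side of the threshold in every one of the 26 settings that gave a value. The length and GC correction turned 5 of them: Hspe1 to -0.0208, Nlrc5 to 0.0863, Bub1 to -0.0108, mt-Co3 to -0.2331 and Psmc6 to -0.0044 (log2). Leaving out 1 library at a time gave 7482 to 8075 called genes, 232 to 267 past 2-fold, 7734 to 8341 with doxycycline and 2374 to 3042 for the interaction. The filter of 1 CPM in 3 libraries gave 96 genes past 2-fold, fewer since scarce genes are not tested. The Spearman correlation with length was 0.0154 for the shortest annotated transcript, -0.1924 for the median one, -0.4552 at a mean of at least 10 CPM and -0.452 for coding length, which was chosen after seeing the data. Left-out libraries gave -0.4206 to -0.3961, and length slope differences of -0.1653 to -0.1521. With the replicate number as a block, 7938 genes were called (3825 higher, 4113 lower) and 2810 for the interaction. All 6 control and dTAG-13 libraries correlated best with their own number, a hint from the data and not the design. With scaling by library size only the interaction had 818 positive and 2424 negative genes, against 1705 and 1245. Of the named genes, 10 lost their call with the same direction in at least 1 setting. Nlrc5 and mt-Co3 are among these 10 and also among those the correction turned. Icam1 was at 0.90 without control replicate 2 and 1.19 without dTAG-13 replicate 1, and H4c14 at 0.68 without control replicate 2 and 0.86 without dTAG-13 replicate 3. Lyz2 was at 0.46 without control replicate 1, 0.71 without dTAG-13 replicate 2 and 0.61 without dTAG-13 replicate 3. Rpl28 was at -0.11 and -0.18 without control replicates 1 and 2, and at -0.16 and -0.14 without dTAG-13 replicates 2 and 3. Nos2 gained a call, at -0.27, without control replicate 1. With 1 culture per group, no setting can show whether another culture would give the same values, and low counts limit the snoRNA values.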

Other observations

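Over all genes tested, 30.0% rose and 32.1% fell with dTAG-13. Of 437 long non-coding RNAs, 136 rose (31.1%) and 16 fell (3.66%), with a median log2 fold change of 0.29 and a median level of 1.23 CPM. Of 232 pseudogenes, 74 rose (31.9%) and 25 fell (10.8%), at a median of 9.39 CPM. Of 11627 protein-coding genes, 3483 rose (30.0%) and 4044 fell (34.8%), at a median of 35.9 CPM. The share that rose was thus near that over all genes in each of these classes, and the differences between classes were not tested. Of 58 replication-dependent histone genes, whose messages mostly lack a poly(A) tail, 12 rose (20.7%) and 0 fell, and after the length and GC correction 3 rose and 2 fell.

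The apolipoprotein L family split. Apol8 and Apol7b fell by 1.34 and 1.72 on the log2 scale, and Apol7a rose by 1.13. Apol7b was scarce, at 0.314, 0.547 and 0.355 CPM in control and at 0.129, 0.161 and 0.069 CPM with dTAG-13. Members of this family are similar in sequence, so reads may be shared between them. Of 25 genes of fatty acid and sterol synthesis, 14 fell (56.0%) and 4 rose (16.0%), where 32.1% of all genes fell and 30.0% rose. After correction 10 fell and 4 rose, where 30.7% of all genes fell and 23.9% rose. Acaca, which makes malonyl-CoA, fell by 0.84, and Cyp51, of sterol synthesis, rose by 0.29. Of 20 SR protein and CLK splicing genes, a list chosen with these data known, 8 rose (40.0%) and 7 fell (35.0%). Of 16 genes of NF-kappaB feedback and chemokines 6 rose (37.5%) and 4 fell (25.0%). Called genes were 62.5% of that list, against 62.1% of all genes, so it does not stand out. Of 3 cold-response genes 0 rose and 1 fell, Rbm3, by 0.38.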
